A study of Homo sapiens with 6 samples.

Results

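The genes described here are the core of the RB pathway and the cyclin-dependent kinase (CDK) inhibitors in the RNA of UE7T-9 cells. They were chosen as a fixed list of names, namely the pocket proteins RB1, RBL1 and RBL2, the CDK inhibitors CDKN1A, CDKN1B, CDKN2A and CDKN2B, the cyclins CCND1 and CCNE1, and the transcription factor E2F1. The list holds 10 of the 28181 genes in the files, and all 10 passed the filter on low values. Its rule used no measured value, but it was chosen with earlier results of these data known. UE7T-9 cells are mesenchymal stem cells from human bone marrow that were made into a line by hTERT and the E7 gene of human papillomavirus, and both groups carry both genes. UE7T-9 SHC4 cells (SHC4 cells in what follows) were infected with a lentivirus that overexpresses SHC4, an adaptor protein of the Shc family, from a constitutive CMV promoter, and were selected with puromycin. UE7T-9 Cont cells, the controls, carry the same vector with GFP and were selected likewise by the methods of the study, but their labels read nontarget and a wild-type genotype. RNA was sequenced from 3 libraries per group, labelled biological replicates. The series text calls the SHC4 cells clones, without their number, and the sources used here do not say if each library had an infection, clone or culture of its own. The p-values below therefore measure the spread between these libraries, which may be technical.

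The RB pathway controls the entry of a cell into DNA replication. RB1 and its relatives RBL1 (p107) and RBL2 (p130) bind E2F transcription factors and hold their target genes silent until CDKs phosphorylate the pocket proteins. Cyclin D and cyclin E activate those kinases. The INK4 proteins encoded by CDKN2A and CDKN2B block CDK4 and CDK6, and the CIP/KIP proteins p21 (CDKN1A) and p27 (CDKN1B) act mainly on CDK2 complexes. The E7 protein of high-risk papillomaviruses binds pocket proteins and releases E2F. A high level of p16, a product of CDKN2A, is a well-known mark of cells in which RB has been inactivated this way. E7 is not a human gene and was not analysed here, and neither were cells without E7, so its part in any level was not tested.

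RefSeq start sites on GRCh38.p14 gave 11 windows of 250 bases before the start for 9 of the 10 genes (CCND1 had no entry). These were searched on both strands for the 4 forms of the E2F motif TTTCGCGC, TTTGGCGC, TTTCCCGC and TTTGCCGC, no 2 of which can overlap on the same strand. Any of these occurred in 979 of 35116 windows of that length (2.79%), and 43 windows (0.122%) held 2 or more. RBL1 and E2F1, both known as targets of E2F themselves, were the members with a match, and each held 2. The window of CCNE1, another known target, did not hold these letters. The windows of RBL1 and E2F1 are shown because they tie these members to the E2F targets described further on, and capitals mark the matches.
RBL1: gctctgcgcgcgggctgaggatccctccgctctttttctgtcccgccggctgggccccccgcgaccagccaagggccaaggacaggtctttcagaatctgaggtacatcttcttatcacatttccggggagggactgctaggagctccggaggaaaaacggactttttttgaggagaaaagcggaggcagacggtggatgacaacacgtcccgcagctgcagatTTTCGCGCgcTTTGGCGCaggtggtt
E2F1: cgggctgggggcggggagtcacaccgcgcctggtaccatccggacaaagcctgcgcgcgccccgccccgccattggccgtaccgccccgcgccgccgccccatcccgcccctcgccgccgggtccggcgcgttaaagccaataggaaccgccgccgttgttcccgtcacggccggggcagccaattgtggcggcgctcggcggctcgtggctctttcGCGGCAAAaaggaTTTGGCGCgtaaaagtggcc
The RBL1 window is chr20:37095998-37096247 on the minus strand, and TTTCGCGC and TTTGGCGC begin 26 and 16 bases before the start. The E2F1 window is chr20:33686386-33686635 on the minus strand, and the matches begin 33 and 20 bases before the start, the farther one (GCGGCAAA) being TTTGCCGC read on the other strand. A match is a run of letters and was not tested for binding, and the RB1 window lies at an internal RefSeq start rather than at the start of the whole gene.

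Values are normalized counts, that is, the reads of a gene divided by 1 size factor per library. The recovered depth was 18144993 to 27721397 reads, and the members were covered by 122 to 17843 reads in a library. The SHC4 gene was at 56.5, 157 and 129.9 in the controls and at 134870.0, 119166 and 155006 in SHC4 cells, as the labels say. TERT, whose reads from the gene and from the introduced cDNA are not separated in the files, lay between 8317 and 16927 in all 6 libraries. All 9 mesenchymal stem cell markers were present (lowest value 1487, PDGFRB), while the markers of other cell types were at lower levels. HLA-DRA (72.8 to 262), CD14 (52.7 to 88.3) and CD34 (39.6 to 52.7), used for blood cells, were present. PECAM1 of endothelium (7.8 to 38.4) was present too. CDH1 of epithelium (2.5 to 17.6) was covered by only 3 reads in UE7T-9 SHC4 replicate 2. PTPRC of blood cells and EPCAM of epithelium did not pass 6.82, and CDH5 of endothelium did not pass 1.18. UE7T-9 Cont replicate 1 stood apart from its group: its mean chi-square per gene was 31.0 against UE7T-9 SHC4 replicate 1 but 86.5 and 134 against UE7T-9 Cont replicates 2 and 3, which differed from each other by 25.4 (about 1 is the value for sampling noise). UE7T-9 SHC4 replicate 1 likewise stood apart, at 75.3 and 63.4 against UE7T-9 SHC4 replicates 2 and 3, which differed by 13.3. Results that rest on UE7T-9 Cont replicate 1 are given with and without it. The fits without it keep UE7T-9 SHC4 replicate 1, the library it was most like.

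Per length, CDKN1A and CCND1 had the highest levels of the 10 genes, followed by CDKN2A. The mean over the 6 libraries, with the reads divided by the joined length of all exons in kilobases, was 4258 normalized counts per kilobase for CDKN1A, the p21 gene. Its libraries ranged from 2020.3 to 6071, and its mean was above that of 99.5% of the 23040 genes tested. CCND1, which encodes cyclin D1, the partner of CDK4 and CDK6, had 2780.0 per kilobase (1861 to 3131), a range that overlapped that of CDKN1A. CDKN2A had 1356 per kilobase (1214 to 1544), below every library of CCND1 and above 97.4% of the genes tested. The 3 genes thus had levels above those of the other 7 in every library by this measure.

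A middle set of 6 genes followed, each overlapping its neighbour in the order. RB1 had 461 normalized counts per kilobase (375 to 561), CDKN1B 432 (386 to 522) and CDKN2B 407 (269 to 635). E2F1, the activator that RB1 holds in check, had 372 (301 to 471), RBL2 283 (237 to 332) and RBL1 250.1 (216 to 279.7). CCNE1, which encodes cyclin E1, the partner of CDK2, came last with 83.7 per kilobase (55.7 to 120.0) and did not overlap RBL1. RB1 was thus above 91.1% of the genes tested and CCNE1 above 64.2%.

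**Figure D1:**
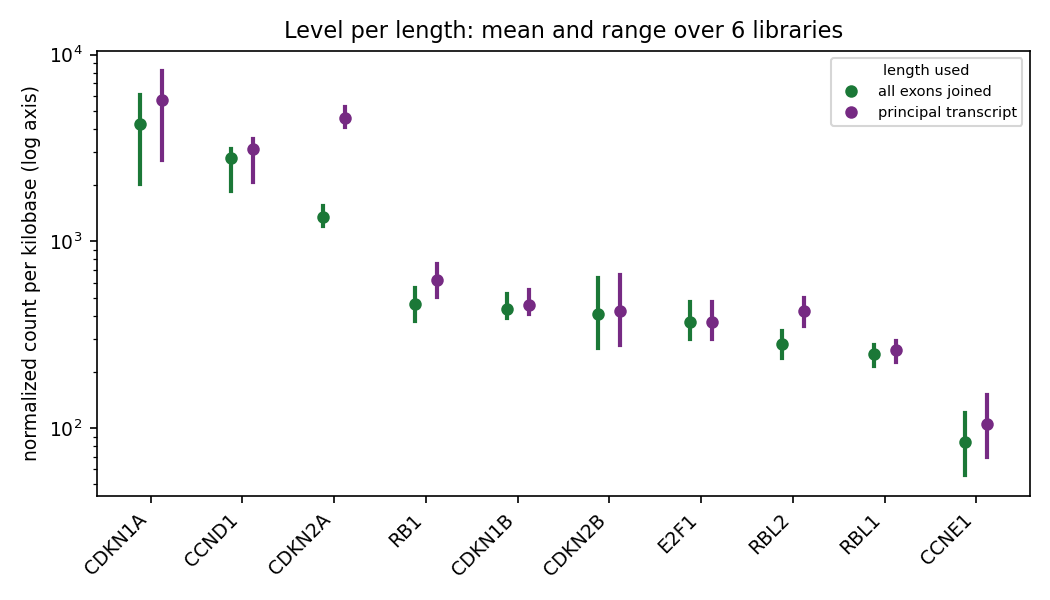
Level of each gene per kilobase on a log axis, as the mean (point) and the lowest to highest of the 6 libraries (line), with the length taken as all exons joined or as the principal transcript. CDKN1A leads with 4258 and CCNE1 closes with 83.7 by joined exons, and CDKN2A moves the most between the lengths, from 1356 to 4575.

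The length used changes 1 place near the top. The joined exons of CDKN2A measure 4329 bases and its principal transcript 1283 bases, and with the latter CDKN2A had 4575 normalized counts per kilobase (4096 to 5208), above every library of CCND1 (2087 to 3511). CDKN1A stayed at the top with 5729 and CCNE1 at the bottom with 104.5, while RBL2 and E2F1 changed places within their overlap. CDKN2A encodes p16INK4A and p14ARF from transcripts with different starts, and a count per gene adds them up. A stretch of 341 of its exon bases (7.88%) is also read from the opposite strand by CDKN2B-AS1, whose mean was 48.3 normalized counts, and the strand setting of the counting is not given in the sources used here. The same holds for CCND1 with LTO1 (497 bases, mean 335), RBL2 with AKTIP (610 bases, mean 493) and CDKN1A with DINOL (146 bases, mean 39.3).

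UE7T-9 SHC4 was compared with UE7T-9 Cont to ask whether these genes moved when SHC4 was overexpressed. A call in limma needed both an adjusted p below 0.05 (Benjamini-Hochberg, over all 23040 genes) and a difference of more than 1 on the log2 scale. Of the 10 members, 0 were called, beside 0.0608% of all genes (0.0521% higher and 0.00868% lower in SHC4 cells, and 0.0651% at the adjusted p alone). With a share this small, 0 of 10 does not set the members apart from other genes. None of the members was called on the recovered reads by DESeq2, which called 2.2% of all genes, and none passed at an adjusted p below 0.05 in edgeR, where 0.0694% did. Without UE7T-9 Cont replicate 1, limma called 0 of the 10 members and 2.88% of all genes. At an unadjusted p below 0.05 the count was 1 of 10 (RB1) in limma, where 14.4% of all genes passed. The median log2 fold change of the 10 was -0.08, beside -0.004 over all genes, with 4 estimates above 0 and 6 below. The groups did not overlap for 1 of the 10 (CDKN1B), against 19.3% of all genes. With 3 libraries per group an exact permutation test of a single gene cannot go below p = 0.1, two-sided. In bulk RNA, fewer cells in a phase of the cell cycle and less RNA per cell cannot be told apart.

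**Figure D2:**
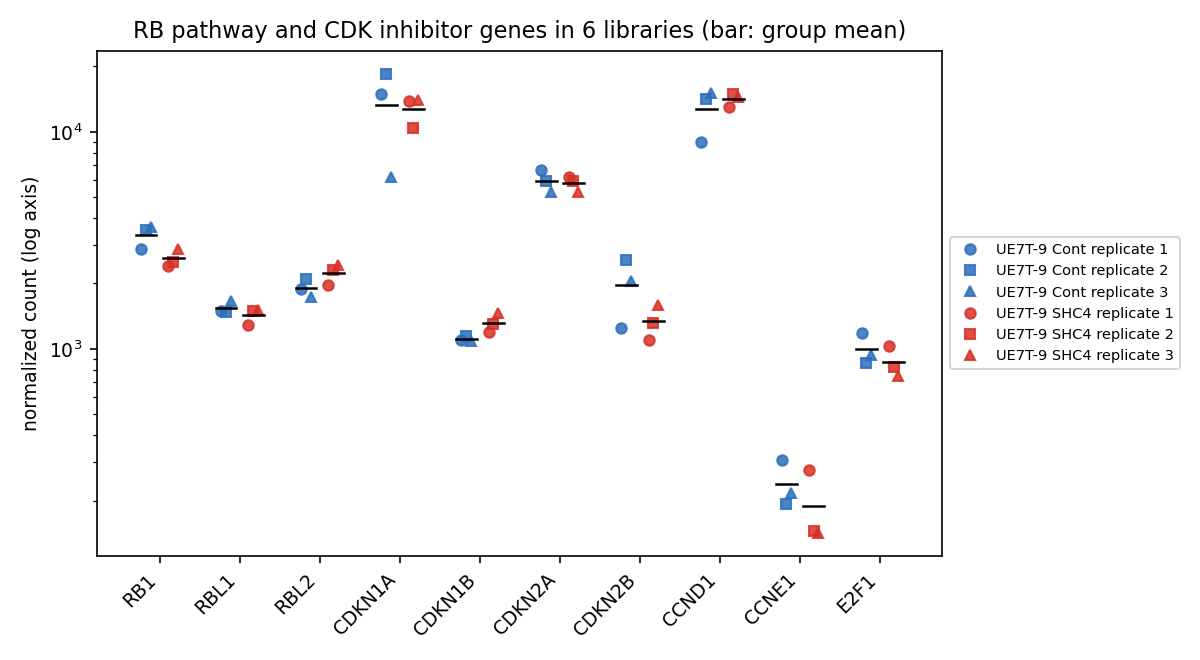
Normalized count of each of the 10 genes on a log axis, with 1 symbol per replicate, 1 colour per group and a bar at the group mean. The groups overlap for every gene but CDKN1B, and CDKN1A in UE7T-9 Cont spans 6162 to 18517.

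Among the pocket proteins, RB1 (chr13:48303726-48599436, plus strand, GENCODE 29 on GRCh38), the tumour suppressor that gives the pathway its name, showed the lowest unadjusted p. It had 2883, 3515 and 3622 normalized counts in replicates 1, 2 and 3 of the controls, against 2417, 2518 and 2894 in SHC4 cells, and all values below are given in that order. The UE7T-9 SHC4 libraries lay lower, with an overlap of 1 library on each side, since SHC4 replicate 3 was just above Cont replicate 1. The means were 3340.3 ± 399 and 2609.5 ± 251 (SD, n = 3), and limma gave a log2 fold change of -0.35 (SE 0.14, 95% interval -0.67 to -0.04) with an adjusted p of 0.297. Without UE7T-9 Cont replicate 1 the estimate was -0.46 (limma, adjusted p = 0.0802), and without UE7T-9 SHC4 replicate 1 it was -0.30 (limma, adjusted p = 0.41).

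RBL1 (chr20:36996349-37095995, minus strand), the relative that is mainly made in dividing cells, had 1499, 1481 and 1665 normalized counts in the controls and 1286, 1491 and 1514 in SHC4 cells. The ranges of the groups overlapped, and the log2 fold change was -0.12 (SE 0.12, 95% interval -0.39 to 0.16, limma adjusted p = 0.707). RBL2 (chr16:53433977-53491649, plus strand), the relative that is most abundant in resting cells, had 1877, 2099 and 1731 in the controls and 1961, 2317 and 2427 in SHC4 cells. Its estimate went the other way, at 0.23 (SE 0.13, 95% interval -0.07 to 0.53, limma adjusted p = 0.465), and SHC4 replicate 1 lay below Cont replicate 2. RBL1 and RBL2 thus gave estimates of opposite sign, neither of which passed the test, and the difference between them was not tested.

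Among the CIP/KIP inhibitors, CDKN1A (chr6:36676460-36687339, plus strand) varied more within UE7T-9 Cont than between the groups. It had 15004, 18517 and 6162 normalized counts in the controls and 13899, 10365 and 13976 in SHC4 cells. Cont replicate 3 lay at a level lower than every other library, and the 2 other controls lay above every UE7T-9 SHC4 library. The control SD was 48.1% of the mean, against 16.2% in UE7T-9 SHC4. The log2 fold change in limma was 0.08 (SE 0.36, 95% interval -0.74 to 0.89, adjusted p = 0.943). Its sign depended on the fit and on 1 library, with -0.05 in both edgeR and DESeq2 and -0.40 in limma without Cont replicate 3 (adjusted p = 0.568).

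CDKN1B (chr12:12715058-12722371, plus strand), which encodes p27, was the member with the least spread in UE7T-9 Cont. It had 1099.6, 1149 and 1086 normalized counts there and 1194, 1298 and 1466 in SHC4 cells. Each library of SHC4 cells was higher than each control, as for 9.13% of all genes. The means were 1112 ± 33.2 and 1319 ± 137 (SD, n = 3), and the log2 fold change of 0.24 (SE 0.12, 95% interval -0.03 to 0.52) did not pass limma's test (adjusted p = 0.407). The exact permutation test over libraries gave p = 0.1, the smallest it can give. The estimate without Cont replicate 1 was 0.23 (limma, adjusted p = 0.335).

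The INK4 genes CDKN2A (chr9:21967753-21995301, minus strand) and CDKN2B (chr9:22002903-22009363, minus strand) lie side by side in the genome, and they gave estimates of different size, a difference that was not tested. CDKN2A had 6682, 5911 and 5255 normalized counts in the controls and 6197, 5917 and 5258 in SHC4 cells. The groups covered nearly the same range, with means of 5949 ± 714 and 5791 ± 482 (SD, n = 3). The log2 fold change was -0.04 (SE 0.14), and its 95% interval of -0.36 to 0.29 bounds the difference in limma, with an adjusted p of 0.936. Without Cont replicate 1 the estimate was 0.05, and without SHC4 replicate 1 it was -0.09.

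CDKN2B, which encodes p15 and is known to respond to TGF-beta, had 1254, 2578 and 2058 normalized counts in the controls and 1093, 1317 and 1600.0 in SHC4 cells. Cont replicate 1 lay among the UE7T-9 SHC4 libraries, and the other controls lay above all of them. The means were 1963 ± 667 and 1337 ± 254 (SD, n = 3), and limma gave a log2 fold change of -0.51 (SE 0.25, 95% interval -1.08 to 0.06, adjusted p = 0.398). Without Cont replicate 1 the estimate was -0.80 with an adjusted p of 0.0404, which did not pass the fold threshold. In that fit 5.17% of all genes passed at an adjusted p below 0.05 and 1 of the 10 members did. The call of a difference in CDKN2B at that p thus rested on leaving out 1 library. Without SHC4 replicate 1, the lowest of its group as Cont replicate 1 was, limma gave -0.37 (adjusted p = 0.586). DESeq2 on all libraries gave -0.55 (adjusted p = 0.276).

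CCND1 (chr11:69641087-69654474, plus strand) had 8988, 14169.6 and 15121 normalized counts in the controls and 13021, 14852 and 14414 in SHC4 cells. All libraries but Cont replicate 1 lay between 13021 and 15121. The log2 fold change was 0.18 (SE 0.21, 95% interval -0.30 to 0.66, limma adjusted p = 0.752). It was -0.06 without that library and 0.23 without SHC4 replicate 1. CCNE1 (chr19:29811898-29824308, plus strand) had 306, 193 and 217 in the controls and 278, 145 and 142 in SHC4 cells. The libraries numbered 1 were the highest of both groups, and the estimate of -0.39 (SE 0.29, 95% interval -1.03 to 0.26) did not pass in limma (adjusted p = 0.575). It was -0.20 without Cont replicate 1 and -0.70 without SHC4 replicate 1, and neither passed. CCNE1 thus had the lowest level of the 10 genes and the widest interval after CDKN1A.

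E2F1 (chr20:33675683-33686404, minus strand) had 1179, 864 and 938 normalized counts in the controls and 1030.0, 822 and 752 in SHC4 cells. Here too the libraries numbered 1 were the highest of both groups, and SHC4 replicate 1 lay above 2 of the 3 controls. The log2 fold change was -0.20 (SE 0.17, 95% interval -0.57 to 0.18, limma adjusted p = 0.632). It was -0.07 without Cont replicate 1 and -0.32 without SHC4 replicate 1, and neither passed in limma. E2F1 and RBL1, the members with E2F motif letters in the windows printed above, thus had estimates of -0.20 and -0.12, and neither passed the test.

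**Figure D3:**
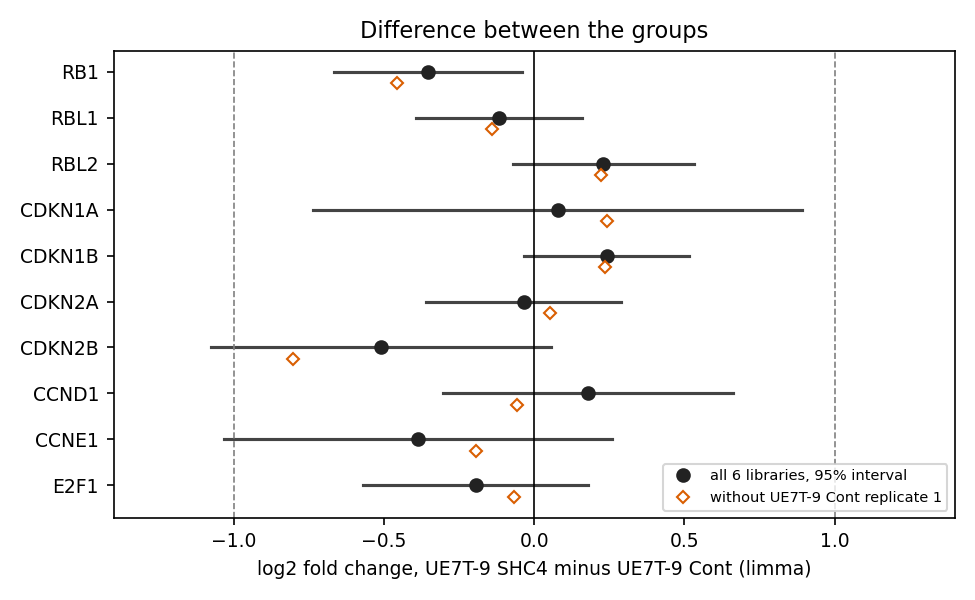
Log2 fold change of each of the 10 genes in limma, UE7T-9 SHC4 minus UE7T-9 Cont, with its 95% interval (black), and the estimate without UE7T-9 Cont replicate 1 (open diamonds). All intervals but that of RB1 (-0.67 to -0.04) include 0, and leaving out the library moves CDKN2B from -0.51 to -0.80 and CCND1 from 0.18 to -0.06.

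The kinases, cyclins, further inhibitors, E2F factors and complex partners of the pathway (27 other genes) had estimates mostly below 0, and none was called in limma. Their median log2 fold change was -0.21, with 21 estimates below 0 and 6 above, beside -0.004 over all genes. For 9 of the 27 the groups did not overlap and were lower in UE7T-9 SHC4, against 10.2% of all genes, and for none were they higher. The unadjusted p was below 0.05 in limma for 8 of the 27, against 14.4% of all genes. DESeq2 gave an adjusted p below 0.05 for CDK6, CKS1B and E2F7, and the share of all genes that passed there was 4.14%. Without Cont replicate 1 the median was -0.16, and 4 of the 27 had an adjusted p below 0.05 in limma, against 5.17% of all genes.

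CDC25A, the phosphatase that activates CDK2, had 278, 306 and 348 normalized counts in the controls and 267, 146 and 134 in SHC4 cells (log2 fold change -0.83, SE 0.26, limma adjusted p = 0.213). E2F7, a repressor of the E2F family, had 2303, 3818 and 3744 against 1674, 1947 and 2097 (-0.76, SE 0.20, adjusted p = 0.183 in limma and 0.0204 in DESeq2). CDK6, which phosphorylates RB1 with cyclin D, had 711, 752 and 978 against 564, 486 and 483 (-0.66, SE 0.15, adjusted p = 0.155 in limma and 0.0195 in DESeq2). In all 3 genes every UE7T-9 SHC4 library lay below every UE7T-9 Cont library, and none passed in limma with all libraries. Without Cont replicate 1, E2F7 had -0.99 (limma adjusted p = 0.00741), CDK6 -0.75 (0.031) and CDC25A -0.91 (0.105), none past the fold threshold.

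The other main kinases gave smaller estimates that did not pass the test either. CDK4, the relative of CDK6, had means of 2222 ± 313 and 2253 ± 437 normalized counts in UE7T-9 Cont and UE7T-9 SHC4 (SD, n = 3), and CDK2 had 1494 ± 63.3 and 1303 ± 126. CDKN2C, the INK4 gene for p18, had 1940.2 ± 321 and 2035 ± 131. E2F3, an activator like E2F1, had 999 ± 160.1 and 729.6 ± 73.3 with no overlap (log2 fold change -0.45, limma adjusted p = 0.246), and E2F4, the E2F bound mainly by RBL1 and RBL2, had 1491 ± 119 and 1352 ± 99.3. The log2 fold changes of CDK4, CDK2, CDKN2C and E2F4 were 0.01 (95% interval -0.36 to 0.39), -0.20 (-0.47 to 0.07), 0.08 (-0.24 to 0.40) and -0.14 (-0.41 to 0.13).

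**Figure D4:**
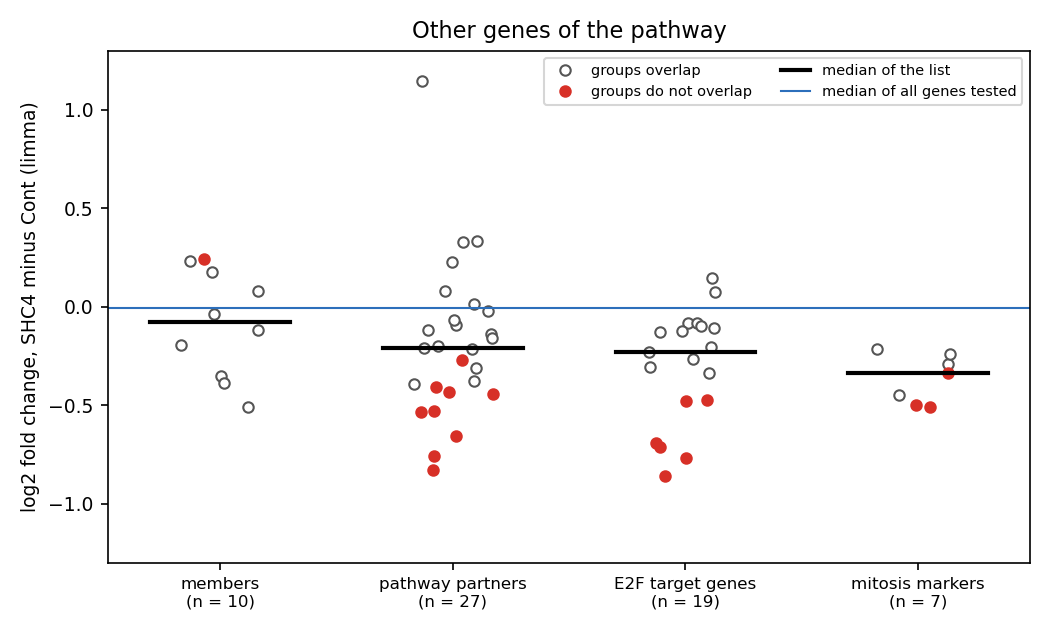
Log2 fold change in limma of each gene of the members and of 3 other lists, with the number of genes under each list, the list median (black bar) and the median of all genes (blue line); filled points are genes whose groups do not overlap. The medians are -0.08 for the members, -0.21 for the pathway partners, -0.23 for the E2F targets and -0.33 for the mitosis markers, beside -0.004 for all genes.

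Of 19 genes known as E2F targets, which serve DNA replication, 17 had estimates below 0 and 2 above, with a median log2 fold change of -0.23. None was called in limma, and 6 had an unadjusted p below 0.05, against 14.4% of all genes. For 6 the groups did not overlap, all lower in SHC4 cells, against 10.2% of all genes. CDC6, which loads the replicative helicase, had 1666, 1767 and 1995 normalized counts in the controls and 1211, 902 and 894 in SHC4 cells. Its log2 fold change was -0.86 (SE 0.15), with an adjusted p of 0.094 in limma and 0.000619 in DESeq2. ORC1, a subunit of the origin recognition complex, had -0.77 (adjusted p = 0.137 in limma and 0.0089 in DESeq2), and CDC45, a part of the active helicase, had -0.71 (0.201 and 0.0974). PCNA, RRM1 and RRM2 were the other genes of the list with an adjusted p below 0.05 in DESeq2, where 4.14% of all genes passed. The median of the list was -0.08 without Cont replicate 1. That fit kept SHC4 replicate 1, and each of these 2 libraries was the highest of its group for 17 of the 19 genes. A median without SHC4 replicate 1 was not computed. In the limma fit without Cont replicate 1, 1 of the 19 genes (CDC6) had an adjusted p below 0.05, near the share of all genes (5.17%). The motif letters searched above occurred in 9 of the 25 windows of these target genes (36%).

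All 7 mitosis markers had estimates below 0, and their median log2 fold change was -0.33, or -0.28 without Cont replicate 1. None was called in limma, and CDK1 and BUB1 had an adjusted p below 0.05 in DESeq2, where 4.14% of all genes passed. BUB1, a checkpoint kinase, had -0.51, CDK1, the mitotic kinase, -0.50 and AURKA, a spindle kinase, -0.45 (limma adjusted p = 0.18, 0.176 and 0.295).

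Within the groups, the libraries differed in an orderly way across these genes. The library numbered 1 was the highest of its group in both groups for 16 of the 19 E2F targets (84.2%), against 18.4% of all genes, and for CDKN2A, CCNE1 and E2F1 among the 10 members. It was the lowest in both groups for RB1, CDKN2B and CCND1 among the members, as for 19.9% of all genes, and for 1 of the 19 E2F targets. RBL1, RBL2, CDKN1A and CDKN1B followed neither pattern, and replicate 3 was the lowest control for all of these but RBL1. Some other genes moved with the same libraries, as the summed level of the 9 mesenchymal stem cell markers was 638600, 276688 and 218822 in the controls and 581163, 394434 and 401210 in SHC4 cells. Most of this sum came from the collagens COL1A1 (315042, 87857 and 67813 against 276719, 130035 and 122241) and COL1A2, while NT5E (13089, 22364 and 20649) and ALCAM (13386, 17348 and 14887) were lowest in Cont replicate 1 among the controls. The markers of other cell types together had 411, 260.2 and 221 in the controls and 287, 345 and 327 in SHC4 cells, of which HLA-DRA had 262, 89.5 and 72.8 against 151, 189 and 161. The part of these differences between libraries in the comparison of the groups was not tested. Fits without each library and with a replicate block were summarized for the members. For the other gene lists at most the fit without Cont replicate 1 is given.

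**Figure D5:**
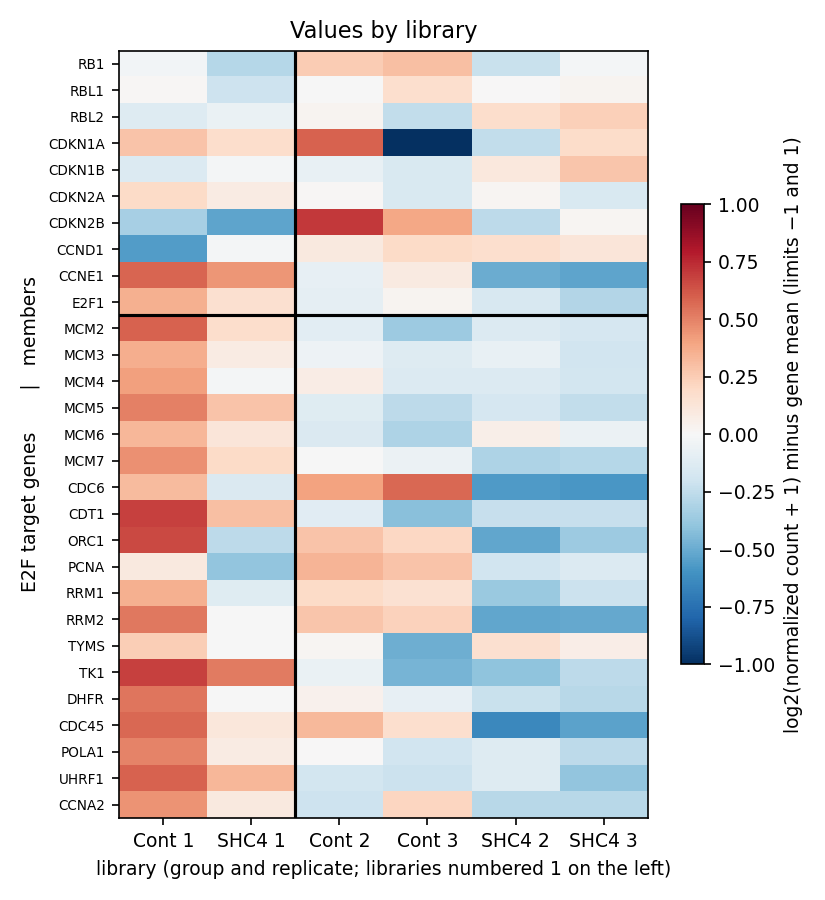
Log2(normalized count + 1) of each gene minus its mean over the 6 libraries, for the 10 members and the 19 E2F targets, with the libraries numbered 1 on the left (red high, blue low, colours limited to -1 and 1). The libraries numbered 1 are the highest of both groups for 16 of the 19 E2F targets, and the members fall on both sides.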

How the data were processed

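RNA of 3 UE7T-9 Cont and 3 UE7T-9 SHC4 libraries was made with the NEBNext Ultra kit and sequenced, and libraries were grouped by their labels. The authors deposited 1 signal per gene and library, the gene count divided by 1 size factor. The submitters' processing notes name HISAT2 2.0.5, featureCounts 1.5.0-p3 and DESeq2, and the genome build, annotation and strand setting are not given in the sources used here. Division of each library by its lowest value above 0 gave whole reads for 100% of values (tolerance 0.01 reads), which served as recovered read counts. Depth was 18144993 to 27721397 reads, and a floor of 3 reads equals a normalized count of 2.50 to 3.53. Intervals cover the spread between libraries. The design named edgeR for counts and limma for normalized values, so limma 3.58.1 (lmFit, eBayes with trend, R 4.3.3) was run on log2(value + 1), where 23040 genes reached a mean of 1 and 5141 were left out. These fold changes understate those of low genes. Calls needed an adjusted p (Benjamini-Hochberg) below 0.05 together with a change of more than 1 on the log2 scale. Alternatives were edgeR 4.0.16 (quasi-likelihood), DESeq2 1.42.0 and limma-voom on recovered reads, library total and TMM scaling, pseudocount 0.1, no filter, a minimum mean of 10, a replicate block, no trend, no fold threshold and leaving out each library. The principal transcript as length was added after the data were seen. The main limma fit, edgeR and DESeq2 were tried on simulated counts with known changes, and the other alternatives and the permutation test were not. Symbols were found for 27968 identifiers (99.2%), and positions and lengths are from GENCODE 29 on GRCh38, matched by identifier. Promoter sequences are from RefSeq on GRCh38.p14. The members and gene lists were chosen with earlier results of these data known. Named genes are the members, SHC4, TERT, in each list up to 3 genes with the largest absolute change at a mean of at least 50, and CDK4, CDK6, CDK2, CDKN2C, E2F3 and E2F4, and 1 further gene and list set by the design are not reported here. CKS1B, PCNA, RRM1 and RRM2, the overlapping genes and the markers given as limits were named after their values were seen. The other columns of the files are empty.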

Additional observations from a re-analysis of the deposited data

How the results depend on the processing

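None of the 10 members was called under any alternative, and 163 of 170 of their values kept direction and side of the threshold. No filter, a minimum mean of 10, a replicate block, no trend and no fold threshold leave the estimate itself unchanged. Its direction could not change in those fits. The estimate of CDKN1A reversed to -0.049 in edgeR, -0.053 in DESeq2, -0.025 with library total scaling and -0.40 without UE7T-9 Cont replicate 3, and it ranged from -0.40 to 0.39 when 1 library was left out. CDKN2A ranged from -0.12 to 0.052, being above 0 without UE7T-9 Cont replicate 1 and at 0.032 without UE7T-9 SHC4 replicate 3. CCND1 ranged from -0.057 (without UE7T-9 Cont replicate 1) to 0.32. The cause was not tested.

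Over all genes, the 14 calls became 355 in DESeq2, 9 in limma-voom, 24 with TMM, 40 with no filter and 7 with no trend, and ranged from 2 to 664 when 1 library was left out (664 without Cont replicate 1, 34 without SHC4 replicate 1, 6 without Cont replicate 2, and 2 without SHC4 replicate 2 or 3). The share of calls that were higher was 85.7%, and it was 47.9% in DESeq2. Library total scaling moved the median of all genes to -0.10. With a replicate block 39 genes (25 higher and 14 lower) and none of the members were called, and the lowest adjusted p among the members in that limma fit was 0.17 (RB1 and CDKN2B). Libraries with the same number deviated from the means of their groups with correlations over genes of 0.148, 0.013 and -0.007, the first being the highest of all 9 combinations. UE7T-9 Cont replicates 2 and 3 correlated best with UE7T-9 SHC4 replicates 3 and 2, so the numbers were not taken as pairs.

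The length used moved the level per kilobase of RB1, RBL2, CDKN1A and CDKN2A by more than 1 SD over the 6 libraries. Reads shared with overlapping genes cannot be assigned without the strand setting, and 18.9% of the 25-base words of RBL2, 9.95% of CCND1, 9.26% of CDKN2A and 8.59% of RBL1 also occur in other genes. CCNE1, the lowest member, had at least 122 reads per library. The precision of each difference is that of its printed interval, with 3 libraries per group.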

Other observations

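Polycomb proteins can hold the INK4 locus silent through H3K27 methylation, which was not tested in these cells. Measured here were 9 genes for Polycomb subunits and the enzymes of this mark. None was called in limma, and the estimates were below 0 for 6 and above 0 for 3, with a median log2 fold change of -0.19, beside -0.004 for all genes. SUZ12, a core subunit of the complex that sets the mark, had 2162, 2397 and 2495 normalized counts in the controls and 1602, 1805 and 1848 in SHC4 cells (-0.42, limma adjusted p = 0.196). EED, which reads the mark in the same complex, had 509, 689.9 and 703 against 505, 485 and 507 (-0.33, limma adjusted p = 0.366). Both genes were lower in every UE7T-9 SHC4 library than in any control, as were 10.2% of all genes. CBX7, a chromobox protein that binds the mark, had an estimate of 0.33 (limma adjusted p = 0.357), and its groups overlapped.

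The 3 genes measured beside CDKN2A and CDKN2B had estimates of -0.09 (MTAP, a methionine salvage enzyme), -0.35 (DMRTA1) and 0.40 (CDKN2B-AS1, the antisense RNA of the locus), with limma adjusted p-values of 0.778, 0.719 and 0.586. CDKN2B-AS1 had a mean of 48.3 normalized counts, under the minimum of 50 for named genes, and is given because it overlaps CDKN2A. Of the 9 mesenchymal stem cell markers, 8 had estimates above 0 and none was called in limma, with PDGFRB at 1.38 (adjusted p = 0.162), THY1 at 1.15 (0.234) and COL1A2 at 0.61 (0.589). DESeq2 called PDGFRB (1.23, adjusted p = 0.0171), beside 2.2% of all genes. Both PDGFRB and THY1 were called in limma without UE7T-9 Cont replicate 1 (1.84 and 1.67, adjusted p = 0.00135 and 0.00288), beside 2.88% of all genes. Of the 9 markers of other cell types 7 were tested and none was called in limma. Without UE7T-9 Cont replicate 1 HLA-DRA was called there (1.03, adjusted p = 0.0303), in a fit that called 2.88% of all genes.

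Over the 6 libraries, the genes with the pattern most like that of CDKN2A were MEPCE, HSPBP1 and ALKBH4, with root-mean-square differences of 0.0253, 0.0301 and 0.0305 on the log2 scale after centring, among the 12678 genes whose mean reached 50. The nearest to RB1 were USP12, LARP4 and HSPH1 (0.0280, 0.0294 and 0.0306). The nearest to CDKN1A were PSG1, CTSV and HMOX1, at larger differences of 0.133, 0.137 and 0.187, and all 3 were lowest in UE7T-9 Cont replicate 3 as CDKN1A was. The points share their libraries and depth, so these likenesses are descriptions of 6 libraries.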
